A study of Mus musculus with 36 samples.

Results

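Open chromatin in gene deserts, the long stretches of a chromosome with no protein-coding gene end nearby, was described in chondrocytes of the developing mouse hand and foot. A desert region was an open region on an autosome whose centre lay more than 500 kb from every start and end of a protein-coding gene on mm10. Merging the 12 deposited peak lists at an overlap of 1 bp gave 65543 regions, of which 63898 were autosomal and 1137 of these (1.78%, Wilson 95% interval 1.68 to 1.88%, which covers counting error only) met the rule. They lay in 227 deserts: 967 regions lay between 2 genes in 193 deserts, and 170 lay inside 34 genes so long that their middle is far from both ends. Each desert is named here by its flanking genes, as Zeb2 to Acvr2a, or by the gene it lies inside.

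The study profiled FVB/NJ mouse embryos at stage E15.5 by ATAC-seq, an assay that tags accessible DNA with a transposase. Chondrocytes of the autopod, the part of the limb that forms the hand or foot, were taken from 12 groups, given by limb (forelimb or hindlimb), skeletal element (phalanges or metapodials, which are the metacarpals and metatarsals) and digit (I, III or V). All groups had this 1 genotype and stage and no treatment was named; each group had 3 libraries, and a library pooled limbs of 3 to 5 embryos of 1 litter. Each deposited list came from the pooled libraries of its group, so a list has no error of its own, the read depth is unknown, and the spread given below is between lists.

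Gene deserts hold few coding sequences but can hold enhancers that act over long distances, and deserts beside developmental transcription factor genes are known for this. In cartilage the textbook case is Sox9, which encodes the transcription factor that sets chondrocyte fate and whose distant enhancers lie in the deserts on either side of it. Open chromatin marks where proteins can reach the DNA, and it does not by itself say what a region does.

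The lists held 36194 to 53276 peaks, and the lowest −log10 p that a list kept ranged from 23.0 to 49.6, so absence of a region from a list does not mean that it was closed there. Annotated promoter windows were also looked up for marker genes of cell types. Of 16457 protein-coding genes, 64.7% had a promoter open in all 12 lists, so an open marker promoter says little about the cell type. Of 5 chondrocyte markers with a window, 3 (Acan, Col9a1 and Sox6) were open in all 12 lists, Matn1 in 11 and Sox5 in none. Markers of other cells were open too. Of the 3 endothelial markers with a window, Kdr and Tek were open in all 12 lists and Tie1 in none. Both neural markers with a window (Tubb3 and Elavl3) were open in all 12 lists. Of 4 epidermal markers Grhl3 was open in all 12 lists and Krt5, Krt14 and Krt10 in none, and of 3 osteoblast markers Alpl was open in all 12, Runx2 in 3 and Bglap in none. Of 5 skeletal muscle markers none was open in all 12 lists. Myf5 was open in 10, Pax7 in 8 and Myog in 2, and Acta1 and Ttn were open in none. The part of other cells in the desert regions was not tested.

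The sequences that the files used here could supply were promoter windows from RefSeq (GRCm38.p6, the same coordinates as mm10), each running from 250 bases before an annotated transcript start to 50 bases from it onward, with the start at base 251. They are shown because they are annotated starts inside desert regions called in all 12 lists: those of the 8 long noncoding RNA (lncRNA) genes whose regions ranked highest, then those of Nrxn3, a presynaptic adhesion gene, and Robo2, which encodes a receptor for the guidance cue Slit. Capitals mark matches to any of 8 motifs searched on both strands.
Gm32703, chr13:109440962-109441261, minus strand: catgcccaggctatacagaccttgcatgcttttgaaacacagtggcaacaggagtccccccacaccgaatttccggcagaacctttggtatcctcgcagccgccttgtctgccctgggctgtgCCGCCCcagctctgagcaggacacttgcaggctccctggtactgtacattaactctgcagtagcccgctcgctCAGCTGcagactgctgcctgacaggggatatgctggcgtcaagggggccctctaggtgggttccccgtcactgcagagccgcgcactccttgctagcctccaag
1700019L22Rik, chr8:50917384-50917683, minus strand: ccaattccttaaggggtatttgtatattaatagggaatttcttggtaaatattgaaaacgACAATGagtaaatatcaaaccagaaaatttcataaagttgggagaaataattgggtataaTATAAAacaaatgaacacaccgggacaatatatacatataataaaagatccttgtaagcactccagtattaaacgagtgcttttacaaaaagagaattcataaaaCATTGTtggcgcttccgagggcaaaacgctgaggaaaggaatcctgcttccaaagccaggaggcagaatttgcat
Gm38584, chr7:69490988-69491287, minus strand: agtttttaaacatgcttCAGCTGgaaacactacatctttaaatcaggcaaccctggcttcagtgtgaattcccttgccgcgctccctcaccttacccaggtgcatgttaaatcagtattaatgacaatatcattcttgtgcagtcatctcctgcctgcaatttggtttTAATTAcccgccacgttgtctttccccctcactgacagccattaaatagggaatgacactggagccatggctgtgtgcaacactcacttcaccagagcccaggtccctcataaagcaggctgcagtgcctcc
Gm13470, chr2:46442856-46443155, minus strand: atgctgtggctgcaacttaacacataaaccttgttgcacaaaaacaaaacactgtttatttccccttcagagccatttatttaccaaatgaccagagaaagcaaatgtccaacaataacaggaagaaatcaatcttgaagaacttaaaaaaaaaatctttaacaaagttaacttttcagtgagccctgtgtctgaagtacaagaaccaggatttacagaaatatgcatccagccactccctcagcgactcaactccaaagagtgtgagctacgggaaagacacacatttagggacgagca
Gm46645, chr19:15340298-15340597, minus strand: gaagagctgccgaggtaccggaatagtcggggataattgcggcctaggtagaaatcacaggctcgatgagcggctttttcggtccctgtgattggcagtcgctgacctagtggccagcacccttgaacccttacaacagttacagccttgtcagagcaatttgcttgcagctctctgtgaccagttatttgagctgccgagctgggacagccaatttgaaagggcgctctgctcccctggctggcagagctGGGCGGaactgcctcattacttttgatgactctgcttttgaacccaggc
4930554C24Rik, chr9:84774148-84774447, plus strand: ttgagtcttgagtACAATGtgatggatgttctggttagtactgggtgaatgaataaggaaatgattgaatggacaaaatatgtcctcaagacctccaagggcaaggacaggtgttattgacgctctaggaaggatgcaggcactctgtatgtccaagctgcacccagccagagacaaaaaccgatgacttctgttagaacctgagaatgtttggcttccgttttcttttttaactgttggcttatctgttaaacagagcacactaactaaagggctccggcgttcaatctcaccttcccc
Gm6634, chr3:70807242-70807541, minus strand: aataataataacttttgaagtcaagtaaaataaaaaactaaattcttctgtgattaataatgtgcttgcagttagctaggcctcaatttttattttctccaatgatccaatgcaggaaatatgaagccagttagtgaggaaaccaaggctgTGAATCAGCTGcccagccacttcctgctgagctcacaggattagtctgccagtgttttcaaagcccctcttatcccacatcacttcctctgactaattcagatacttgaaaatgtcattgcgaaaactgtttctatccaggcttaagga
Gm40174, chr3:147990449-147990748, plus strand: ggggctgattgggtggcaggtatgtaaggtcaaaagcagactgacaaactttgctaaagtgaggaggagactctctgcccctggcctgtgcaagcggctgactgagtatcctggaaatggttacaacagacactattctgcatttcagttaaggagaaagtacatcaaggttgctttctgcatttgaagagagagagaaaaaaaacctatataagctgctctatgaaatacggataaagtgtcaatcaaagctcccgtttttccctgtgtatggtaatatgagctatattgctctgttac
Nrxn3, chr12:89812233-89812532, plus strand: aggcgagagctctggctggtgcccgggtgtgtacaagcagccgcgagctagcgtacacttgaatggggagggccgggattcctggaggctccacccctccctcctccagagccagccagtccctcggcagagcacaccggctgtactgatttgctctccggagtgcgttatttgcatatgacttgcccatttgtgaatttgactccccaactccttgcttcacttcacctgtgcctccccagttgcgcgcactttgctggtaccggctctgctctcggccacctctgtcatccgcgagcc
Robo2, chr16:74411776-74412075, minus strand: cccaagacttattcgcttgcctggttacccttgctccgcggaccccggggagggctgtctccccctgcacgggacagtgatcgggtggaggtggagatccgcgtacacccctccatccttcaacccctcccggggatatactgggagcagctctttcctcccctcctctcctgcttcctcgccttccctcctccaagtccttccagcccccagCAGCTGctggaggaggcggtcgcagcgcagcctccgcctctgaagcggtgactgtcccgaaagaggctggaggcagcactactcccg

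The motifs and the share of all 32851 windows that hold each were as follows. The SOX motif ACAATG was in 12.6% of windows, the E-box CAGCTG in 16.3%, the GC box GGGCGG in 35.7% and the TATA box TATAAA in 13.6%. The homeobox motif TAATTA was in 5.29%, the AP-1 motif TGANTCA in 7.81%, the RUNX motif TGTGGTT in 5.27% and the CRE TGACGTCA in 1.79%. By class, the GC box was in 16.3% of lncRNA windows and 46.2% of protein-coding windows. Of the 10 windows shown, 4 held the E-box, 2 the SOX motif, 2 the GC box, 1 the homeobox motif, 1 the TATA box and 1 the AP-1 motif, and the last overlaps an E-box in the Gm6634 window. A match describes the letters of a window and is not evidence of binding. The Nrxn3 and Robo2 windows were rich in G and C, at 60.7% and 65.0%, against a median of 56.3% over protein-coding windows. The 20 lncRNA windows in desert regions had a median of 45.8%, against 48.3% over all 11588 lncRNA windows.

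A smaller share of desert regions than of other regions was called in all 12 lists, and a larger share in a single list. Of the 1137 regions, 118 (10.4%, Wilson 95% interval 8.74 to 12.3%) were called in all 12 lists, against 35.5% of all autosomal regions and 18.9% of the 19210 regions 50 to 500 kb from a gene end, which serve as the comparison set. In 1 list alone were 323 (28.4%), against 16.9% of all autosomal regions and 21.7% of the comparison set, and 114 of these were in the metacarpal digit III list, the longest of the 12. A further 696 were called in 2 to 11 lists. The 118 regions in all lists lay in 75 deserts, 19 of them inside genes. Their summits, the points of highest signal, spread over a median of 138 bp across the 12 lists, against 151 bp for comparison regions in all lists. Peak strength rose with sharing: the median fold enrichment, a linear ratio that the authors' peak caller gave, was 5.82 for desert regions in 1 list and 11.8 for those in all 12.

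**Figure D1:**
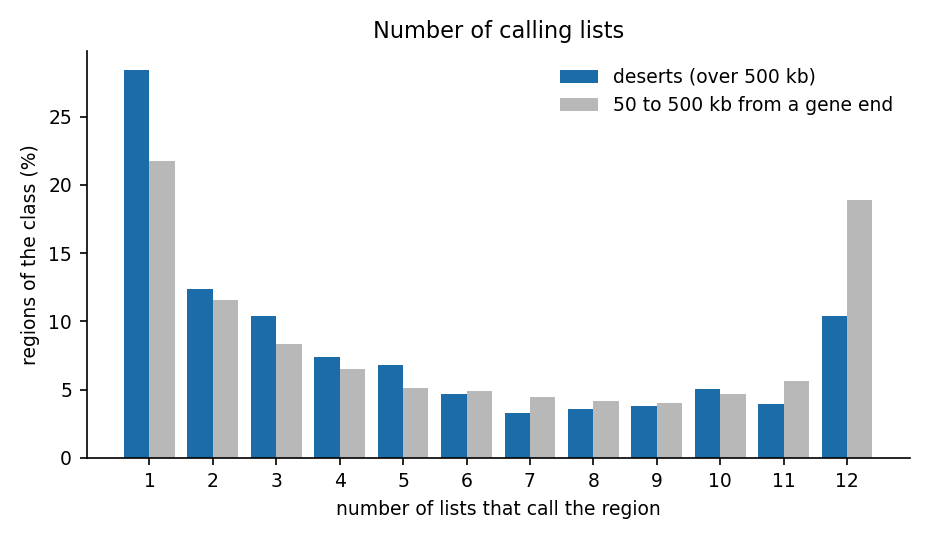
Share of regions (%) by the number of lists that call them, for desert regions (blue, n = 1137) and for regions 50 to 500 kb from a gene end (grey, n = 19210). Desert regions have 28.4% in 1 list and 10.4% in all 12, and the comparison set has 21.7% and 18.9%.

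The share of regions open in every list fell step by step with distance from genes. It was 84.9% within 1 kb of a gene end and 41.5% from 1 to 10 kb. It was 23.4% from 10 to 50 kb, 21.7% from 50 to 100 kb, 17.5% from 100 to 250 kb and 14.6% from 250 to 500 kb. In the deserts it was 10.5% (Wilson 95% interval 8.73 to 12.6%, n = 960) from 500 to 1000 kb and 9.6% (6.08 to 14.8%, n = 177) beyond 1000 kb. The last 2 intervals overlap. The median distance of a desert region was 646 kb and the farthest lay 2188 kb from a gene end. The regions nearest the threshold show how the rule divides its neighbours. Just inside it, regions inside Kcnip4 (500.1 kb), between Adamts5 and N6amt1 (500.4 kb) and inside Gpc6 (500.4 kb) were called in 5, 1 and 6 lists. Just outside, regions inside Ptprd (499.6 kb), between Slc8a1 and Pkdcc (499.4 kb) and between Nr5a2 and Ptprc (499.4 kb) were called in 12, 4 and 6 lists.

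**Figure D2:**
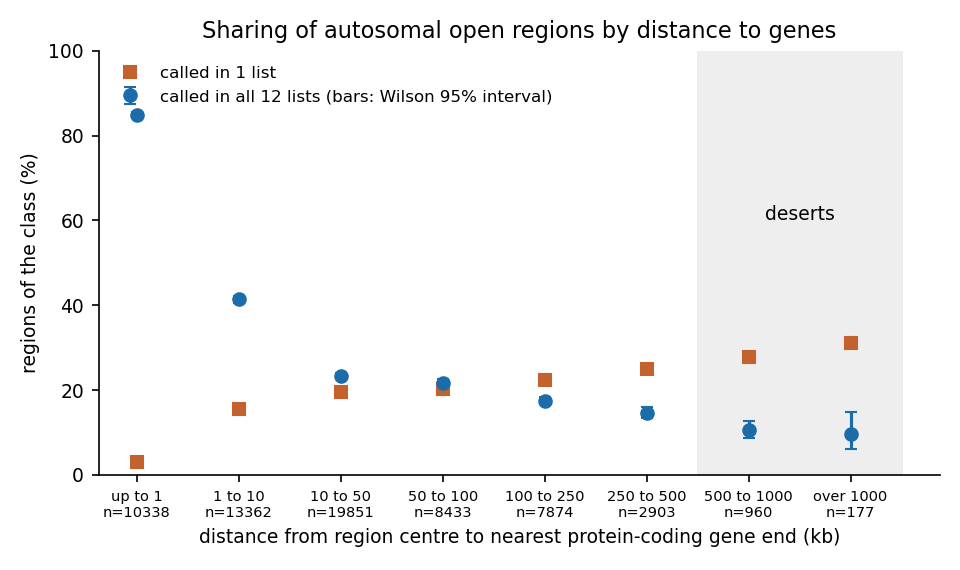
Share of autosomal regions (%) called in all 12 lists (blue points, bars are Wilson 95% intervals) and in 1 list (orange squares) by distance from the region's centre to the nearest protein-coding gene end in kb. The share in all lists falls from 84.9% within 1 kb to 9.6% beyond 1000 kb, and the share in 1 list rises from 3.04% to 31.1%.

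Within a list, desert regions were weaker, narrower and less shared than regions 50 to 500 kb from a gene end. The mean percentile of −log10 p in its list was 33.5 ± 1.85 (SD, n = 12 lists) for desert peaks and 36.3 ± 1.60 for comparison peaks. The median peak width was 1354 ± 123 bp against 1646 ± 140 bp. A called desert region was also called in 7.12 ± 0.855 of the other 11 lists, against 8.06 ± 0.803. Each difference had the same direction in 12 of 12 lists (two-sided exact sign-flip permutation test, p = 0.000488, the smallest that 4096 sign patterns allow, and the same after Benjamini-Hochberg adjustment over 4 contrasts). Fold enrichment ranked the peaks exactly as −log10 p did in all 12 lists, so it gives the same percentiles. The lists call many of the same regions, so their 12 differences are not independent of each other. The direction for strength turned when only the more significant 50% of each list was used (2.12 percentile points higher in deserts, exact permutation p = 0.0312). Among those peaks, without regions of fold over 100 in either set, which was chosen after seeing the data, the difference was -2.90 (exact permutation p = 0.000977). With the ends of every annotated gene as limits only 37 regions were left, and desert peaks were then higher by 8.22 points.

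Desert territory was sparsely open. The parts of autosomes more than 500 kb from every gene end add up to 231 Mb. That is 9.52% of the span from the first to the last gene or peak of each autosome. They held 1.96 ± 0.513 called regions per Mb in a list (n = 12 lists) against 17.2 ± 2.21 in the rest (lower in 12 of 12 lists, exact permutation p = 0.000488). The rest holds every gene end, with 10338 regions within 1 kb of one, so the lower density follows in part from the rule. Over the union, the deep interior of long genes held 10.7 regions per Mb and the space between genes 4.49. Regions inside genes also ranked higher within a list, with a mean percentile of 36.9 ± 2.03 against 33.0 ± 2.06 for regions between genes (higher in 12 of 12 lists, exact permutation p = 0.000488). A list had 51 to 129 called regions inside genes. They include those with the Nrxn3 and Robo2 starts (mean percentiles 97.4 and 95.3) and 1 inside Ptprd (97.1). These regions were called in all 12 lists, so the 12 differences are not independent. The difference was not computed without them. The median gap to the nearest other desert region was 34.0 kb, and 244 of the 1088 with a neighbour in the same desert had one within 10 kb.

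Annotated transcript starts were rare in desert regions, in part because of the rule, but marked the stronger ones. Of the 1083 desert regions on chromosomes that the promoter table covers, 24 (2.22%) held a start, 18 of a lncRNA and 6 of a protein-coding transcript, against 20.7% of all autosomal regions and 4.5% of the comparison set. The rule keeps desert regions away from the outermost start of every protein-coding gene, so their lower share than over all autosomal regions follows in part from it. The comparison set lies away from gene ends too, and its difference from the desert share was not tested. Among desert regions called in all lists, 12 of 107 (11.2%) held a start, against 416 of 3455 (12%) in the comparison set, a difference that was not tested. Among desert regions called in 1 list it was 1 of 309. Start-holding desert peaks had a median fold enrichment of 12.6 ± 2.25 against 7.61 ± 0.960 for other desert peaks, a mean percentile of 55.5 ± 2.43 against 32.6 ± 2.04, and a median width of 2444 ± 244 bp against 1334 ± 124 bp (n = 12 lists each). All were higher in 12 of 12 lists (exact permutation p = 0.000488 for each). A list had 15 to 22 start-holding peaks, so these values rest on few regions. They are largely the same regions in every list, so the 12 differences are not independent. The p-values do not measure the spread between regions.

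The strongest start-holding regions belonged to neural adhesion and guidance genes. Nrxn3 encodes a neurexin, and neurexin genes make a short protein form from a start deep inside the gene. The region with the Nrxn3 start shown above (chr12:89810873-89815731, 521.6 kb from the nearer end of the gene) was called in all 12 lists with a fold of 48.7 to 91.9 (median 74.2). The region with the Robo2 start (chr16:74408183-74414234, 519.2 kb from the nearer end) had a fold of 38.4 to 92.5 (median 67.0), also in all 12 lists. Inside Dpp10, which encodes a subunit of potassium channels, a start-holding region (chr1:124043306-124047114) had a fold of 10.7 to 21.8 in all 12 lists. The other coding starts lay inside Dlg2, a synaptic scaffold gene (11 lists, fold 5.43 to 10.6), Magi2, another scaffold gene (10 lists, 5.76 to 9.21), and Fhit, a gene at a fragile site (5 lists, 5.54 to 6.45). The folds of the Nrxn3 and Robo2 regions lay above those of the other 4 coding starts in every list.

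The lncRNA starts covered a wider range. The strongest was Gm32703 inside Pde4d, which encodes a phosphodiesterase of cyclic AMP, with a fold of 23.6 to 46.9 (median 40.4) over 12 lists. Next was 1700019L22Rik, between Tenm3 and Aga and 1393.5 kb from Tenm3, with 19.7 to 47.7 (median 29.6). Gm38584, 859.7 kb from Nr2f2, had 13.7 to 25.2 (median 17.96), and Nr2f2 encodes a nuclear receptor of mesenchyme and vessels. Gm13470, 1325.6 kb from Zeb2, had 11.97 to 25.4 (median 16.3), and Zeb2 encodes a zinc finger repressor of epithelial genes. Gm46645 (10.6 to 22.4), 4930554C24Rik (7.75 to 20.4), Gm6634 (7.88 to 16.6) and Gm40174 (7.34 to 15.6) were lower, and their ranges overlap each other. The 10 remaining lncRNA starts were in regions called in 1 to 12 lists. One microRNA lay in a desert region: the hairpin of Mir582 (chr13:109324744-109324824, plus strand, inside Pde4d) overlapped a region called in 5 lists. Its mature arms, credited to RefSeq with the seed (bases 2 to 8) in capitals, are as follows.
mmu-miR-582-5p: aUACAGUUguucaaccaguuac
mmu-miR-582-3p: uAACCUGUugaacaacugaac

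The highest folds of all belonged to a few regions that hold no annotated start. A fold over 100 in at least 1 list was found in 9 desert regions (0.792%), against 41 of 19210 (0.213%) in the comparison set and 1.3% of all autosomal regions, differences that were not tested. Of the 9, 7 were narrower than 1000 bp. The highest was at chr12:97061428-97061792, 365 bp between Flrt2 and Galc, with a fold of 3707 to 11006 in all 12 lists. A pair between Lrrc4c and Iftap followed, at chr2:98662227-98664095 (3948 to 9133) and chr2:98664896-98665233 (1396 to 3429), both in all 12 lists. Regions at chr4:80002458-80003455 (Ptprd to Tyrp1, 410 to 1924) and chr5:60042718-60043094 (Pcdh7 to G6pd2, 332 to 1409) were also in all 12 lists. Those at chr4:80003800-80004287, chr1:122356619-122357479 and chr6:9889936-9890482 were called in 10, 9 and 3 lists. In these 8 regions the summits of all calling lists fell within 12 bp or less. The remaining one, inside Ptprd (chr4:76446791-76452683), was 5893 bp wide with a fold of 40.7 to 105, close to Nrxn3 and Robo2 in both measures. Whether these 8 regions are repeats or other high-signal sequence was not tested. Without the regions of fold over 100 in deserts and comparison set alike, a setting chosen after seeing the data, the within-list difference in strength was -3.76 percentile points in place of -2.79.

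**Figure D3:**
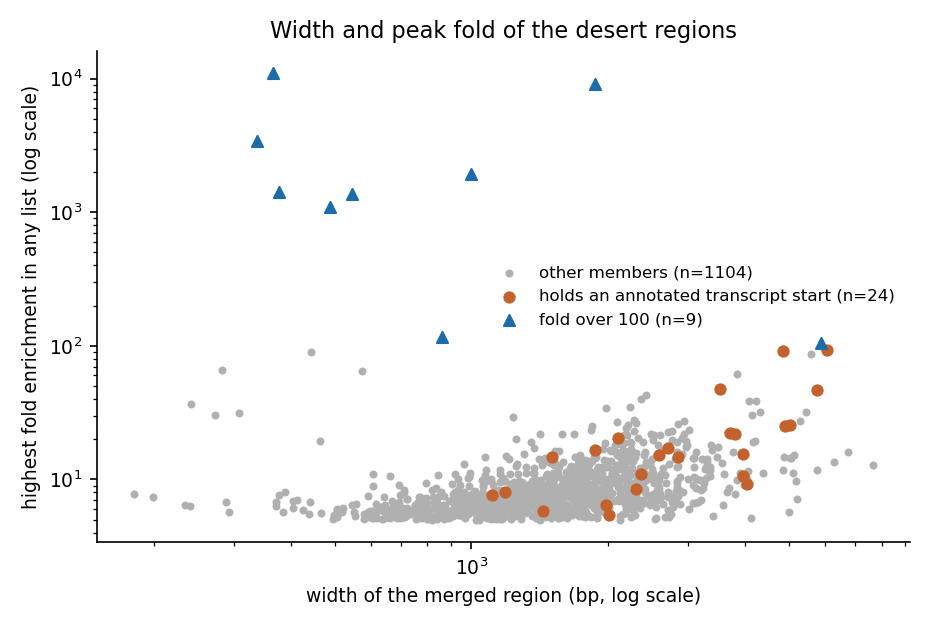
Width of each merged desert region (bp, log scale) against its highest fold enrichment in any list (log scale), for regions that hold an annotated transcript start (orange, n = 24), regions of fold over 100 (blue triangles, n = 9) and the other members (grey, n = 1104). Of the start-holding regions, 21 of 24 are wider than the median desert region (1505 bp), with Nrxn3 and Robo2 near a fold of 92, and 7 of the 9 triangles lie above a fold of 1000.

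Deserts differed widely in how many open regions they held. Of 258 gaps over 1 Mb between neighbouring protein-coding genes, 65 held no desert region, and these were shorter (median 1189 kb) than the 193 with 1 or more (median 1689 kb). Only 1 region was found in 49 of the 227 deserts, 92 held 5 or more, and the 35 with 10 or more held 481 of the 1137 regions. Zeb2 to Acvr2a, beside Zeb2 and an activin receptor gene, held the most, with 29 regions over 3697 kb, of which 3 were in all 12 lists. A list called 8 to 17 of them (median 12). One of the 3 is the Gm13470 start region, and the others (chr2:46181755-46185226 and chr2:46186417-46188689) are neighbours with folds of 6.54 to 14.6 and 5.59 to 14.2.

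Other rich deserts are given here with what their flanking genes are known for. None of the 12 richest lay beside a gene of the list of limb and skeletal regulators used below. Of all 258 gaps only 18 (6.98%) did, so this shows no difference. The ranking is by count and not per Mb. Nmbr to Cited2, beside the gene of the transcriptional coregulator Cited2, held 21 regions, with 5 to 19 called per list (median 11). Slc10a2 to Efnb2, beside an ephrin ligand gene, held 21 with 6 to 13 per list (median 8.5), and its strongest region in all lists, chr8:8050107-8052297, had a fold of 12.2 to 24.1. Bcl11a to Fancl, beside a zinc finger repressor gene best known in blood and nerve cells, held 20 with 5 to 15 per list (median 11), and 4 were in all lists. Epha7 to Map3k7, between an ephrin receptor gene and the gene of the kinase TAK1, held 17 and none in all 12 lists. Lcorl to Slit2, beside the gene of the ligand of Robo receptors, held 16, and 3 of them in all lists lay within 1 short stretch (chr5:47321533-47357474, folds from 5.18 to 26.1). Fat4 to Intu and Gm40892 to Flrt2 held 15 each and none in all lists. Flrt2, an adhesion gene, has a desert on either side, and the other, Flrt2 to Galc, held 13.

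A pair of the rich deserts are immune receptor loci. Adam6a to Zfp386 held 18 regions and spans the immunoglobulin heavy chain genes, with 184 annotated segments that the table does not class as protein-coding genes. A list called 1 to 10 of its regions (median 3), and 12 of the 18 were in 1 list. Gm36448 to Dad1, with 201 segments of the T cell receptor alpha and delta genes, held 14 regions and 0 to 12 per list. Together 36 desert regions lay in antigen receptor loci and 25 overlapped a segment. Of the blood markers with a promoter window, Ptprc, the pan-leukocyte gene, was open in no list and Hba-a1, a globin gene of red cells, in 11, and the part of blood cells in these regions was not tested.

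Inside long genes the richest were Macrod2 and Pde4d with 16 desert regions each, Robo2 with 15, Lsamp with 14, Nrxn3 with 12 and Dlg2 with 10. Macrod2 encodes an ADP-ribose hydrolase, Lsamp a neuronal adhesion protein. Macrod2 had 3 to 11 regions called per list and none in all 12 lists, while Pde4d had 7 to 13 per list and 4 in all 12. Robo2 had 4 to 11 and Lsamp 1 to 11. In Lsamp 1 region was in all lists (chr16:40967537-40969499, fold 10.9 to 18.9).

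**Figure D4:**
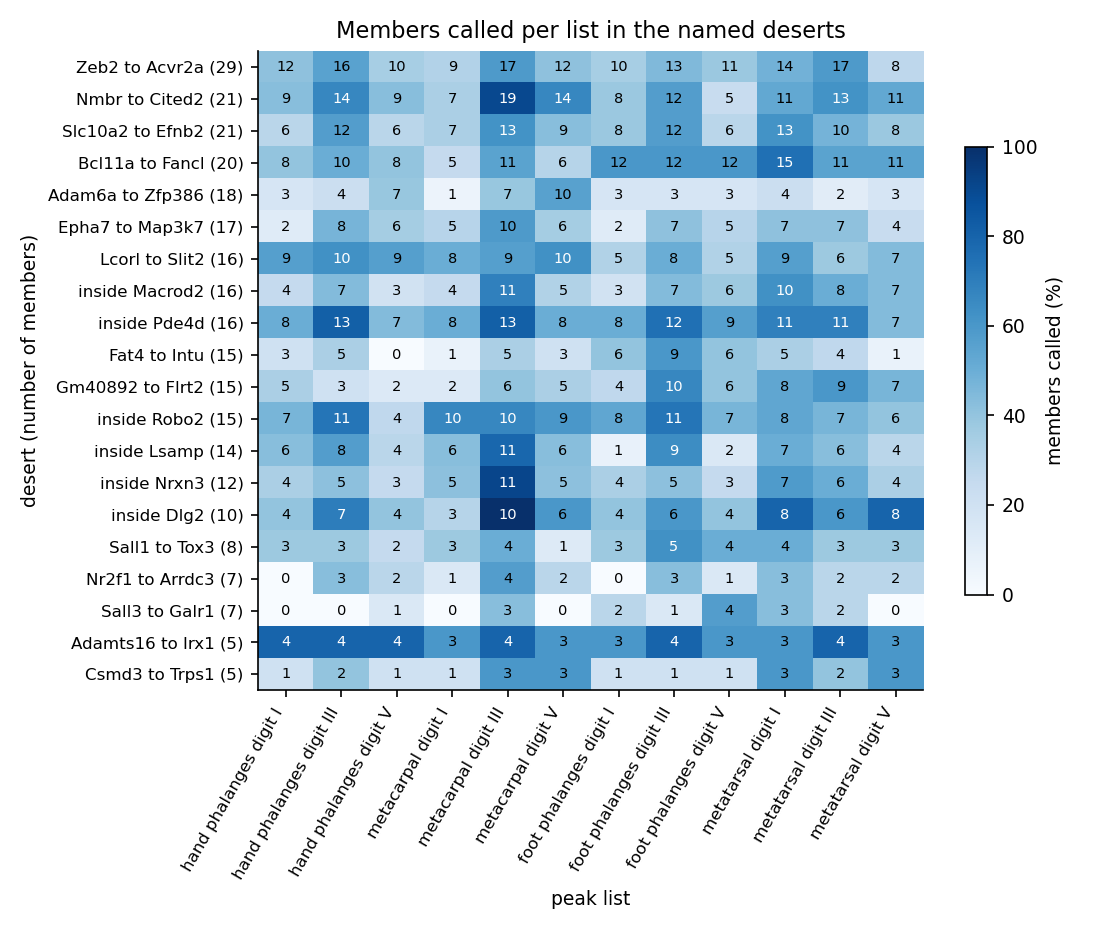
Number of desert regions called in each of the 12 lists (columns) for the named deserts with 5 or more regions (rows, number of regions in brackets), coloured by the percent of the desert's regions called. Metacarpal digit III calls 17 of 29 regions in Zeb2 to Acvr2a and 10 of 10 inside Dlg2, and metacarpal digit I calls 9 and 3.

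By count, deserts beside known limb and skeletal regulators were few and mostly held few regions. Of the 258 gaps 18 (6.98%) had a flanking gene of a list of 136 such regulators. Of the 193 gaps with desert regions it was 11 (5.7%), and of the 65 without it was 7 (10.8%), among them gaps beside Gdf6, Fgf9 and Sox11. Those 7 gaps were only 1006 to 1095 kb long. Little of each lies more than 500 kb from both ends, so their lack of desert regions says little. Sall1 to Tox3, beside a zinc finger gene of limb and kidney development, held 8 regions, with 1 to 5 per list. One was in all lists (chr8:89631159-89634142, fold 5.86 to 18.2). Nr2f1 to Arrdc3 and Sall3 to Galr1 held 7 each and none in all lists. Adamts16 to Irx1, beside a homeobox gene of the Iroquois family, held 5, and every list called 3 or 4 of them. Its pair in all lists, chr13:71451376-71454677 and chr13:71455115-71460398, lay next to each other with folds of 7.2 to 14.1 and 12.7 to 27.3. Csmd3 to Trps1, beside the gene of a zinc finger repressor of growth plate cartilage, held 5 with 1 to 3 per list and none in all. Cetn3 to Mef2c, beside a factor of chondrocyte hypertrophy, held 4, and 1 was in all lists (chr13:82892375-82894254, fold 8.19 to 16.7). Arrdc4 to Nr2f2 held 3, of which 2 were in all lists. Hnf4g to Zfhx4, Id2 to Rnf144a and Klhl1 to Dach1 held 2 each, and Gm11677 to Sox9 held 1. Only the part of a gap more than 500 kb from both flanking genes can hold such regions. Per Mb of that part, these 11 gaps held from 3.58 (Hnf4g to Zfhx4) to 43.0 (Adamts16 to Irx1), with 39.4 in Sall1 to Tox3. Over all such space between genes it was 4.49, empty gaps included. The highest values rest on short parts, 116 kb for Adamts16 to Irx1 and 203 kb for Sall1 to Tox3. For Gm11677 to Sox9 the part was 55.9 kb, with 17.9 regions per Mb.

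Genes of a list for neural adhesion and synapses flanked more of the deserts than those of the regulator list. This contrast depends on which genes each list holds, and it was not tested. Of the 258 gaps 74 (28.7%) had a flanking gene of a list of 141 such genes, and the share was 31.6% of the gaps with desert regions, 20% of those without and 37.2% of those with 5 or more. The gaps with 5 or more were also longer (median 1970 kb against 1506 kb over all gaps). Of 353 flanking genes with a promoter window, 254 (72.0%) had it open in all 12 lists, against 64.7% of 16457 protein-coding genes. Among the neural genes beside deserts with 10 or more regions, 10 had a promoter window. The promoters of 7 (Epha7, Slit2, Flrt2, Pcdh17, Cdh8, Grik2 and Tenm4) were open in all 12 lists and those of 3 (Tenm3, Adgrl2 and Tenm2) in none.

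Almost no desert region separated the parts of the autopod. A region separated a class when every list of the class called it and no other list did. For hindlimb, forelimb, metapodials and digit III there was 1 desert region each (0.088% of 1137), against 0.0782%, 0.00626%, 0.0923% and 0.121% of all autosomal regions. For phalanges, digit I and digit V there was none, against 0.122%, 0.00626% and 0.00156%. With shares this small in both, counts of 1 and 0 show no difference between deserts and other regions.

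The hindlimb region lay between Gm11677 and Sox9 (chr11:112238659-112240045, 1387 bp), 542.9 kb from Sox9, and was the 1 desert region of that gap. Only 55.9 kb of the 1056 kb gap lies more than 500 kb from both genes. Open regions in the rest of it are not counted here. Its fold was 7.58, 7.84 and 6.81 in the foot phalanges of digits I, III and V and 6.56, 7.24 and 6.17 in the metatarsals. It was in none of the 6 forelimb lists. The median fold of desert regions called in 6 lists was 6.98. Among the more significant 50% of each list the Sox9 region was called in 0 of 6 hindlimb lists. The forelimb region lay between Flrt2 and Galc (chr12:97465268-97466756), 1680.8 kb from Flrt2, with folds of 6.27, 10.3 and 6.39 in the hand phalanges of digits I, III and V and 9.97, 7.79 and 7.09 in the metacarpals.

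The metapodial region lay inside Macrod2 (chr2:141666627-141668961), with folds of 9.34, 8.70 and 5.43 in metacarpals I, III and V and 8.74, 10.8 and 9.70 in the metatarsals. The digit III region lay between Tnc, which encodes the matrix protein tenascin C, and Pappa, which encodes a protease of an IGF-binding protein (chr4:64594654-64596009, 528.8 kb from Pappa). It had folds of 6.01 and 6.73 in the hand phalanges and metacarpals and 5.80 and 6.04 in the foot phalanges and metatarsals of digit III. Digit III lists are among the longest, and with lists of equal length it was called in 0 of 4 of them. At equal length the forelimb region was called in 5 of 6 lists, and the hindlimb and metapodial regions still in 6 of 6. Among the more significant 50% of each list, the metapodial region was called in 1 of 6 lists of its class, the forelimb region in 0 of 6 and the digit III region in 0 of 4.

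The share of open regions that lie in deserts did not separate limbs or elements. Counts per list ran from 294 desert regions in metacarpal digit I to 708 in metacarpal digit III, and the shares of all autosomal regions of the list from 0.882% to 1.45%. Hindlimb lists had 1.15 ± 0.0999% and forelimb lists 1.19 ± 0.233% (SD over 6 lists each; two-sided exact permutation test, p = 0.75). Phalanges had 1.14 ± 0.159% and metapodials 1.20 ± 0.194% (exact permutation p = 0.219). The ranges overlap in both cases, and 64 labellings within strata allow no p below 0.0312.

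Digit III lists had the larger desert shares, by a difference that did not pass adjustment and that moved with list length. Digit III lists had 1.33 ± 0.109% (n = 4) and the others 1.09 ± 0.141% (n = 8), a difference of 0.236 (exact permutation p = 0.0494, adjusted p = 0.247 over 5 shares, smallest possible p 0.0123). Digit I lists had 1.03 ± 0.161% against 1.24 ± 0.140% (exact permutation p = 0.0988), and digit V lists 1.15 ± 0.111% against 1.18 ± 0.202% (exact permutation p = 0.79). No digit contrast passed the adjustment. With 1 list left out, the digit III difference ranged from 0.183 to 0.299. It passed without metacarpal I or metacarpal V (exact permutation p = 0.037 for each) and not without any 1 of the other 10 lists (exact permutation p from 0.0556 to 0.148). When every list was limited to the 36194 most significant peaks, digit III lists had 1.10 ± 0.0721% against 1.01 ± 0.132% (exact permutation p = 0.259). Digit I lists then had 0.936 ± 0.0553% against 1.10 ± 0.106% (exact permutation p = 0.0247, adjusted p = 0.123). Across the 12 lists the share rose, in the 1 relation across lists that was computed, with the number of called autosomal regions (Pearson r = 0.721, permutation p = 0.00742; Spearman rho = 0.615, permutation p = 0.0376). Without metacarpal III and foot phalanges III, the 2 lists farthest from the median length, r was 0.565.

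**Figure D5:**
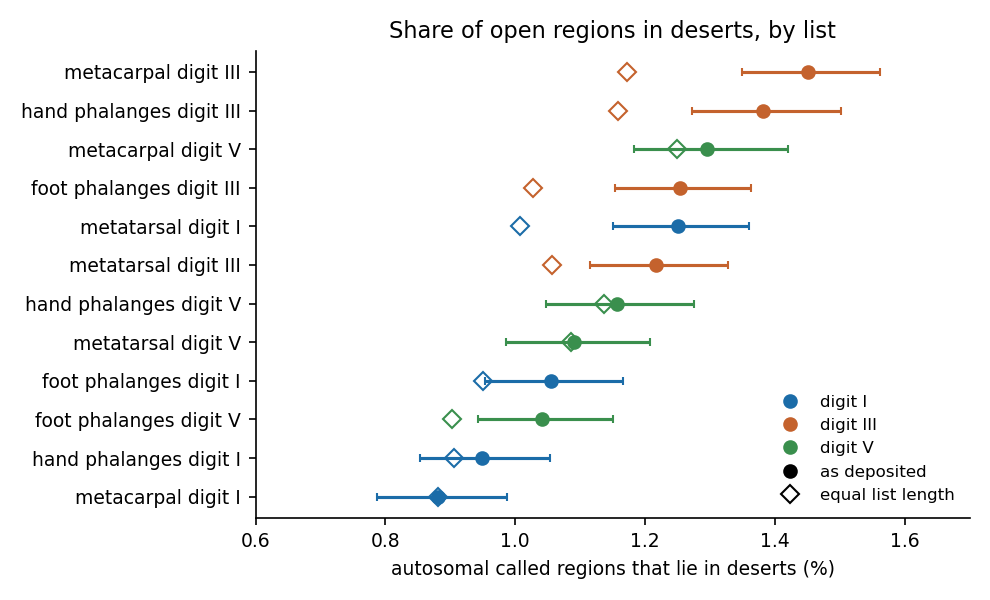
Share of the autosomal open regions of each list that lie in deserts (%), with Wilson 95% intervals for the lists as deposited (filled circles) and without intervals for lists limited to an equal number of peaks (open diamonds), coloured by digit. As deposited the lists run from 0.882% to 1.45% with digit III lists among the highest, and at equal length from 0.880% to 1.25%.

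Single deserts gave no difference between limbs or elements past adjustment. The number of called regions per list was compared in the 92 deserts with 5 or more regions. Between limbs, the median difference over these deserts was 0.0 called regions, hindlimb minus forelimb. Of the 92, 0 had an unadjusted exact permutation p under 0.05 (0.0% in either direction, smallest adjusted p 1.0). Between elements, the median difference was -0.333 called regions, phalanges minus metapodials. One of the 92 (1.09%) passed unadjusted: inside Nrxn3, phalanx lists called 3, 3, 4, 4, 5 and 5 of the 12 regions and metapodial lists 4, 5, 5, 6, 7 and 11. The groups overlap. The means were 4.0 ± 0.894 and 6.33 ± 2.50 (SD over 6 lists each; exact permutation p = 0.0312 and 0.411 after adjustment).

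Bcl11a to Fancl, picked here after its values were seen, shared the lowest p between limbs with Lcorl to Slit2 and Gm40892 to Flrt2. As deposited, hindlimb lists called 11, 11, 12, 12, 12 and 15 of its 20 regions and forelimb lists 5, 6, 8, 8, 10 and 11 (exact permutation p = 0.0625), so the classes meet at 11. At equal list length, 5 of 65 deserts (7.69%) passed the unadjusted threshold between limbs and 4 of 65 (6.15%) between elements, with smallest adjusted p-values of 0.406 and 0.325. Higher in the hindlimb were Bcl11a to Fancl (8.83 ± 1.17 called regions against 6.33 ± 1.21) and Zfp608 to Gramd3 (7.33 ± 0.516 against 5.67 ± 1.03). Lower were Lcorl to Slit2 (5.0 ± 1.26 against 8.5 ± 1.05), inside Lsamp (3.0 ± 1.26 against 5.67 ± 1.03) and Epha7 to Map3k7 (3.5 ± 1.52 against 5.33 ± 1.75). Lower in the phalanges were Flrt2 to Galc (2.17 ± 0.983 against 6.0 ± 1.41), inside Macrod2 (3.67 ± 0.816 against 5.83 ± 1.17), inside Nrxn3 (3.0 ± 0.632 against 5.17 ± 1.17) and inside Lrp1b (0.5 ± 0.837 against 1.5 ± 0.837). Each had an exact permutation p of 0.0312 (n = 6 lists per class), the smallest the design allows, and no desert passed adjustment.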

How the data were processed

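ATAC-seq was made from 36 libraries in 12 groups of 3, per the labels. Per the submitters' processing notes, the tools were MACS3, Picard 2.9.0 and Bowtie2 2.3.4.1 and the build was mm10. Their roles and settings, and any shift of the cut sites, are not given in the sources used here. The files hold 1 peak list per group, called on pooled libraries per their peak names and selected by reproducibility per the file names. For each peak the authors deposited a score, a fold enrichment, which is a linear ratio, the −log10 p and the offset of the summit in bases, as the peak caller gave them. The score was not used. The read depth is unknown, so the precision per list cannot be given, and replicates could not be compared. A region missing from a list may lie below its threshold.

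Peaks were merged into regions at an overlap of 1 bp with Python 3.11.15, NumPy 2.4.6, pandas 2.3.3 and SciPy 1.17.1. Gene positions and promoter windows came from RefSeq tables for GRCm38.p6, and 21887 protein-coding genes set the distances. Windows cover 27025 genes, and chromosome 18 is not used in results on starts. A promoter was open in a list when a called region held its start. Percentiles are ranks of −log10 p within a list. Lists are the units of every test. For limb, element and digit, labels were exchanged among lists alike in the remaining factors (64 labellings for limb or element, 81 for a digit), and desert and comparison values were compared by sign-flips over the 12 lists (4096 patterns). All tests were two-sided, and p-values measure the spread between lists, which may be technical. Separate cultures or litters per library were not compared.

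Named were the 12 deserts with the most regions, those beside a regulator gene, the 6 genes with the most regions inside, deserts that differed at an unadjusted p under 0.05, separating regions, the 8 strongest in all lists, up to 8 noncoding starts, and 3 regions on each side of the threshold. Coding starts, regions of fold over 100 and deserts at equal list length were added after their values were seen. The members and lists were chosen with earlier results of these data known. The procedure was tested on simulated lists. Alternatives changed the distance, the genes, the lists' length and significance, the overlap and the peak shape, and left out each list in turn. Those without regions of fold over 100, in deserts alone or in all sets, or without antigen receptor loci were chosen after seeing the data.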

Additional observations from a re-analysis of the deposited data

Results flagged for a closer look

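Open regions in deserts of the X chromosome lay outside the comparisons, which covered autosomes. There were 24 such regions more than 500 kb from a protein-coding gene end, 3 of them called in all 12 lists and 11 in 1 list. No control samples exist for them, and they were named because they are a signal in data that the comparisons did not use. Of 42 groups of lists tested for an outlying list in the desert measures, none had one past Dixon's 95% critical value.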

How the results depend on the processing

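No paired analysis was possible because each list pools its 3 replicates and carries no replicate number. Leaving out lists was not run for single deserts, where the smallest p would exceed 0.05. The lower width, density and sharing of desert peaks kept their direction in the alternatives run, with a loss of the call for sharing with the ends of every annotated gene (-0.0803, exact permutation p = 0.562) and for width with 500-bp windows round summits (0), where widths are equal by construction. The cause was not tested for the changes below unless it is named. Within-list strength, and fold with it, turned with the more significant 50% of each list (2.12) and with the ends of every annotated gene (8.22, 0.582 without desert regions of fold over 100, and 0.869 without any region of fold over 100). The digit III share lost its call at 1 Mb (0.0292), with the ends of every gene (0.0103, or 0.0116 without regions of fold over 100 in deserts or in all), between genes only (0.183), at equal length (0.0886) and with 50% cover (0.291). With the ends of every gene the element share passed (-0.0156, -0.0148 without desert regions of fold over 100, and -0.0151 without any), and at equal length the digit I share did (-0.163). Single deserts past an unadjusted p of 0.05 numbered 1 by limb and 8 by element at 250 kb, 5 and 4 at equal length, and by element 3 with 50% cover, 2 with summit windows and 0 at 1 Mb, with the ends of every gene, between genes only and with the more significant 50%. Counts of desert regions, of those in all lists and of those in 1 list follow from the rule: 4040, 543 and 1048 at 250 kb; 177, 17 and 55 at 1 Mb; 37, 3 and 6 with the ends of every gene (35, 2 and 6 without fold over 100); and 311, 30 and 106 with the more significant 50% (302, 24 and 106 without fold over 100). With 50% cover 58 were in all lists. Separating regions numbered 20 at 250 kb, 8 with 50% cover, and 0 at 1 Mb and with the ends of every gene. Leaving out 1 list gave 5 to 12, since fewer lists must meet the rule, with 10 without hand phalanges III or metacarpal I, 7 without hand phalanges V, 12 without metatarsal I and 8 without metatarsal III or V. It gave 1025 to 1133 desert regions, and digit III differences of 0.183 to 0.299, past the threshold in 2 of 12 cases. Without antigen receptor loci no result changed its call.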
